A study of Mus musculus with 11 samples.

Results

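The 42 genes described here act in the lysosome and in autophagy, and they were taken from the 54347 genes of the deposited count table by their mouse symbols. All 42 were found and all 42 passed the filter on low counts, among 14915 genes that did. Of these members 24 are lysosomal, and 15 of the 24 encode hydrolases (8 cathepsins and 7 other enzymes), 7 encode membrane proteins and 2 encode soluble cofactors. Another 15 members belong to autophagy, and 3 encode the transcription factors Tfeb, Tfe3 and Mitf. The list was named by function and not by measured values, although earlier results of these data were known when it was chosen.

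Expression was measured by RNA sequencing in 3 marrow populations of female C57BL/6NTac mice. EMCN+ LT-HSCs (4 libraries, mice 1 to 4) were long-term haematopoietic stem cells that carried the sialomucin endomucin on their surface, and EMCN- LT-HSCs (3 libraries, mice 1, 2 and 4) lacked it. Both were sorted from lineage-depleted marrow of hind-leg bones by a CD150+ CD48- gate within the fraction high in c-Kit and Sca-1. GMPs (4 libraries, mice 1 to 4), the granulocyte-monocyte progenitors, were the committed population set against them. The animals were wild type and untreated as far as the labels say, and their age is not given in the sources used here. A further 1 EMCN- library was removed by the submitters as of poor quality. Each library is a bulk of 3000 to 5000 sorted cells for LT-HSCs, so fewer cells expressing a gene and less RNA per cell cannot be told apart.

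The lysosome is an acidic compartment in which hydrolases degrade proteins, lipids and glycans. Its membrane proteins protect the organelle and export the products, and the V-ATPase pumps protons into it. Autophagy delivers cytoplasm to the lysosome: the ULK kinases start it, a lipid kinase complex with beclin 1 and the WIPI proteins marks the site, and the conjugation machinery attaches ATG8 proteins of the LC3 and GABARAP branches to the growing membrane. The MiT/TFE factors bind a short element in promoters of many lysosomal genes, the CLEAR element. Blood stem cells are known to need autophagy, and quiescent stem cells of the mouse are known to hold enlarged lysosomes of low activity.

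The CLEAR core, TCACGTGA, was looked for in the promoters of the members, from 250 bases before to 50 bases after the RefSeq start on GRCm38.p6, on both strands. Of the 42 members 35 had such a promoter, and 4 of the 35 (11.4%) held the core, against 304 of 27025 promoters in all (1.12%). The shorter E-box CACGTG, which lies within the core, was in 9 of 35 (25.7%), against 8.09% of all promoters. The full CLEAR element, a longer form that contains the core, was in 0 of 35, against 0.37% of all promoters. A FOXO site was looked for as well and was in 0 of 35, against 4.05% of all promoters. The 4 promoters with the core are shown because they belong to members whose measurements differed from each other below. They are written 5′ to 3′ in the direction of the gene, with the core in capitals.
Ctsa, chr2:164833730-164833792, plus strand: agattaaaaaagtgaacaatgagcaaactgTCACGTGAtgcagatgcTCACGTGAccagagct
Ctsd, chr7:142387889-142387956, minus strand: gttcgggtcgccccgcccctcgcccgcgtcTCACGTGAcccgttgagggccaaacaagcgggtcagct
Mcoln1, chr8:3500443-3500510, plus strand: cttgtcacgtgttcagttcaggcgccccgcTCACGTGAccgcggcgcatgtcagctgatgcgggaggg
Gla, chrX:134601163-134601255, minus strand: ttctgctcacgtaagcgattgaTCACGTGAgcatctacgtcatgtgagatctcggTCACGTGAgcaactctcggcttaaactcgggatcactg
Ctsa and Gla hold the core at 2 places each, and Ctsd and Mcoln1 hold it once. The first core begins 13 bases before the start in Ctsa, 99 before it in Ctsd, 46 before it in Mcoln1 and 228 before it in Gla. A match of letters is a description of the sequence and not a measured binding site. The CLEAR element is known from promoters of many lysosomal genes, so its share among the members is not an independent test of the list. Members without such a promoter, Ctsh, Npc1 and Atg12 among them, were not searched.

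Libraries held 3.63 to 11.1 M estimated counts, and the members took 0.217 to 0.263% of the counts in EMCN+ LT-HSCs, 0.213 to 0.227% in EMCN- LT-HSCs and 0.158 to 0.168% in GMPs. Levels below are CPM, the count of a gene per 1 M counts of the library after scaling with TMM factors, which match the bulk of genes between libraries. These factors were 1.098 to 1.311 in the 7 LT-HSC libraries and 0.6682 to 0.7569 in the GMP libraries, so scaling between LT-HSCs and GMPs was large. Mitochondrial ribosomal RNA took 13.9 to 22.1% of counts in EMCN+ LT-HSCs, 17.3 to 18.7% in EMCN- LT-HSCs and 26.5 to 29.3% in GMPs. A set of 5 abundant noncoding transcripts (Rmrp, Rpph1, Rn7sk, Rn7s1 and Rn7s2) summed to 1.64 to 3.84%, 4.16 to 5.25% and 7.53 to 8.34% of counts in the same order, with no overlap between the 3 groups. The sum of 9 LT-HSC markers was 1470 to 1780 CPM, 1210 to 1380 CPM and 144 to 204 CPM in EMCN+ LT-HSCs, in EMCN- LT-HSCs and in GMPs, and the sum of 8 GMP markers, Mpo, Elane and Prtn3 among them, was 52.4 to 55.9, 47.3 to 55.2 and 15300 to 18600 CPM in the same order. The labelled cell types therefore carried their defining markers. The LT-HSC sum includes Slamf1, Kit and Ly6a, genes of the CD150, c-Kit and Sca-1 gate, so it is not independent of the sort. Emcn itself had 25.0 to 28.1 CPM in EMCN+ LT-HSCs, 12.7 to 16.2 CPM in EMCN- LT-HSCs and 0 to 1.37 CPM in GMPs, and the log2 difference between the fractions was 0.87 ± 0.27 (SE, edgeR adjusted p = 0.11).

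**Figure D1:**
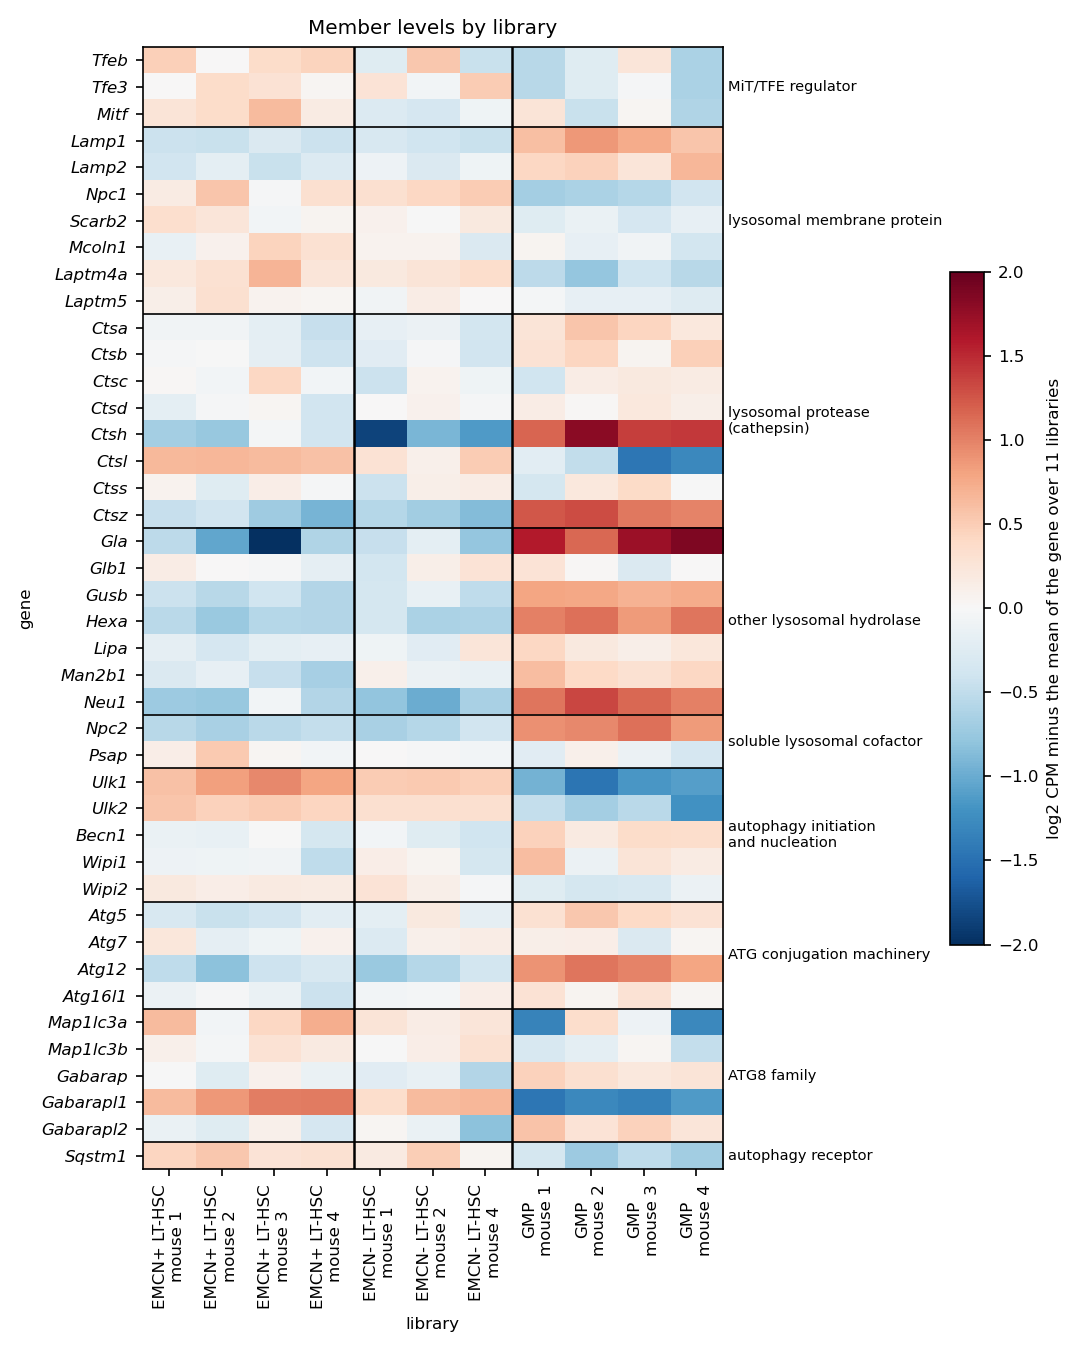
Level of each of the 42 members (down, grouped by role) in each of the 11 libraries (across), as the log2 CPM minus the mean of that gene over the 11 libraries, limited to a range of -2 to 2. The EMCN+ and EMCN- columns look alike for most members, and the 4 GMP columns stand apart, with Gabarapl1, Ulk1 and Ctsl low and Gla, Ctsh, Ctsz and Hexa high in GMPs.

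Between EMCN+ and EMCN- LT-HSCs none of the 42 members passed the test (edgeR's quasi-likelihood test, Benjamini-Hochberg adjusted p under 0.05 over 14915 genes), against 293 genes (1.96%) in all, 115 higher (0.771%) and 178 lower (1.19%) in EMCN+ LT-HSCs. DESeq2 and limma-voom called none of them either, where they called 451 and 374 of the 14915 genes. At an unadjusted p under 0.05, edgeR found 6 members, DESeq2 5 and limma-voom 6, and edgeR found 13.9% of all genes. With mouse as a block and just the 6 libraries of mice that gave both fractions, 908 of 13435 genes were called and again no member. The median log2 difference of the members was 0.05, EMCN+ minus EMCN-, against 0 over all genes tested.

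The 3 transcription factors were measured at low levels. Mitf, best known from pigment cells, had 17.6, 18.9, 22.8 and 16.4 CPM in the EMCN+ libraries of mice 1 to 4, against 12.1, 11.6 and 13.9 CPM in the EMCN- libraries of mice 1, 2 and 4. Every EMCN+ library lay above every EMCN- library, with a log2 difference of 0.60 ± 0.21 (SE, unadjusted p = 0.0104, edgeR adjusted p = 0.177). Tfeb, a master regulator of lysosomal genes, had 8.04, 5.79, 7.46 and 7.82 CPM in EMCN+ LT-HSCs, against 4.90, 8.40 and 4.23 CPM in EMCN- LT-HSCs. The EMCN- library of mouse 2 was the highest of the 7, and the groups overlapped (log2 difference 0.30 ± 0.31, edgeR adjusted p = 0.746). Tfe3, its close relative, had 11.6, 14.9, 14.0 and 11.9 CPM in EMCN+ LT-HSCs, against 13.9, 11.1 and 16.4 CPM in EMCN- LT-HSCs. These groups overlapped too, with a log2 difference of -0.06 ± 0.22 (SE, edgeR adjusted p = 0.943).

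Among the lysosomal members, Ctsh had the smallest p of this comparison. Ctsh encodes cathepsin H, an aminopeptidase, and had 9.63, 9.14, 15.1 and 11.9 CPM in EMCN+ LT-HSCs, against 4.28, 8.23 and 7.05 CPM in EMCN- LT-HSCs. Every EMCN+ library lay above every EMCN- library, and the lowest EMCN+ value stood close to the highest EMCN- value. The log2 difference was 0.81 ± 0.25 (SE), with an unadjusted p of 0.00345 and an edgeR adjusted p of 0.103. Ctsh passed the threshold in 3 of 24 alternatives, with total-count scaling, without the filter on low counts and with libraries thinned to the smallest total, and its adjusted p ranged from 0.0124 to 0.488 over the alternatives. Man2b1, the lysosomal alpha-mannosidase, lay lower in every EMCN+ library, at 56.3, 61.1, 49.7 and 43.2 CPM in EMCN+ LT-HSCs against 73.9, 63.5 and 61.8 CPM in EMCN- LT-HSCs (log2 difference -0.33 ± 0.13, edgeR adjusted p = 0.218). The values of Man2b1 were lower in the EMCN+ library of each of the 3 mice with both fractions, but by little in mouse 2. The other 22 lysosomal members had log2 differences from -0.58 (Gla) to 0.33 (Ctsl) and edgeR adjusted p of 0.531 or more. Ctsh and Man2b1 are singled out in this comparison after their values were seen.

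Of the 15 autophagy members 3 had an unadjusted p under 0.05. Gabarapl1, an ATG8 protein of the GABARAP branch, had 82.6, 97.6, 108 and 109 CPM in EMCN+ LT-HSCs, against 68.2, 82.2 and 84.1 CPM in EMCN- LT-HSCs (log2 difference 0.35 ± 0.12, SE, edgeR adjusted p = 0.179). The EMCN+ library of mouse 1 lay below the EMCN- library of mouse 4, so the groups overlapped, although each mouse with both fractions had more in EMCN+ cells. Ulk1, the kinase that starts autophagy, had 45.0, 53.4, 58.7 and 52.2 CPM in EMCN+ LT-HSCs, against 42.7, 43.4 and 42.1 CPM in EMCN- LT-HSCs, with a log2 difference of 0.29 ± 0.13 (SE, edgeR adjusted p = 0.326). Atg5, part of the conjugation machinery, had 24.6, 22.6, 23.5 and 26.6 CPM in EMCN+ LT-HSCs, against 26.9, 35.4 and 27.3 CPM in EMCN- LT-HSCs, with a log2 difference of -0.30 ± 0.14 (SE, edgeR adjusted p = 0.328). The EMCN+ libraries lay above all EMCN- libraries for Ulk1 and below them for Atg5. In all, 5 members had every EMCN+ library above every EMCN- library (Mitf, Ctsh, Ctsl, Ulk1 and Ulk2), against 7.25% of all genes, and 2 had every one below (Man2b1 and Atg5), against 6.99% of all genes. The first count stood above its share and the second below it, and neither difference was tested.

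The remaining ATG8 genes did not pass the test between EMCN+ and EMCN- LT-HSCs. The log2 differences were 0.23 ± 0.13 for Gabarap, 0.11 ± 0.18 for Gabarapl2, 0.23 ± 0.43 for Map1lc3a and -0.01 ± 0.13 for Map1lc3b (SE). Their edgeR adjusted p were 0.459, 0.858, 0.886 and 0.986 in that order. The 95% interval ran from -0.04 to 0.51 for Gabarap and from -0.27 to 0.25 for Map1lc3b, so neither interval reached 1 on the log2 scale. Map1lc3a, at 4.96, 3.07, 4.23 and 5.28 CPM in EMCN+ LT-HSCs and 3.82, 3.55 and 3.76 CPM in EMCN- LT-HSCs, rested on 16 to 50 counts a library, and its interval reached from -0.68 to 1.13.

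**Figure D2:**
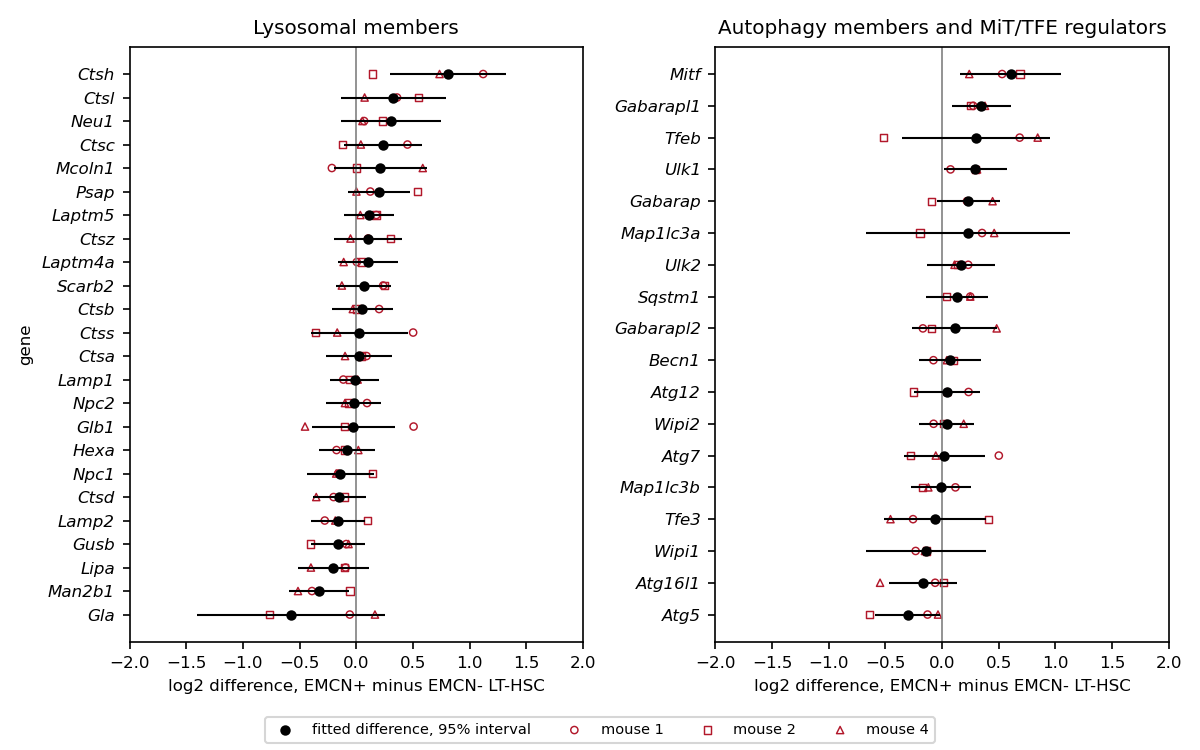
Log2 difference of each member, EMCN+ minus EMCN- LT-HSC (across), for lysosomal members (left) and autophagy members with the MiT/TFE genes (right); black points with bars are the fitted difference and its 95% interval, and open symbols are the difference within each of the 3 mice that gave both fractions. Most intervals cross 0, and no member passed the adjusted threshold; Ctsh, with 0.81, lies farthest to the right.

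LT-HSCs and GMPs differed in many of these genes, and the lysosomal hydrolases are described apart from the autophagy genes. With TMM factors most hydrolases were lower in LT-HSCs, among them Gla, Ctsh, Ctsz, Neu1 and Hexa, and cathepsin L (Ctsl) was the exception that was higher. Autophagy genes went both ways, with Gabarapl1, Ulk1, Ulk2 and Sqstm1 higher and Atg12 lower in LT-HSCs. Over the 42 members 12 were higher and 18 lower in LT-HSCs (edgeR adjusted p under 0.05), where 62.5% of all genes tested were called, 32.5% higher and 29.9% lower. Of the 15 hydrolases 1 was higher and 10 were lower, with a median log2 difference of -0.56, LT-HSC minus GMP, and of the 15 autophagy members 6 were higher and 5 lower, with a median of 0.00, against 0.03 over all genes tested. The autophagy counts were thus near the shares of all genes, and the 10 of 15 hydrolases stood above the share of lower genes. Scaling by total counts instead of TMM factors moved the median of all genes by 0.78. These counts turned to 7 higher and 6 lower for the hydrolases and to 10 higher and 1 lower for the autophagy members. Of all 14915 genes tested 9063 were higher and 1907 lower with total-count scaling. The share of higher genes among all genes called was 82.6% with it, against 52.1% with TMM factors. The 6 of 15 hydrolases still stood above the share of lower genes under that scaling.

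The 13 lysosomal members that were lower in LT-HSCs include 6 hydrolase and cofactor genes with the largest differences. Gla (chrX:134588149-134601125 on GRCm38), the alpha-galactosidase whose loss causes Fabry disease, had 3.08, 2.16, 0.668 and 2.93 CPM in EMCN+ LT-HSCs and 3.21, 3.88 and 2.58 CPM in EMCN- LT-HSCs, against 13.3, 9.79, 14.6 and 16.2 CPM in GMPs. All LT-HSC libraries lay below all GMP libraries, with a log2 difference of -2.37 ± 0.29 (SE, edgeR adjusted p = 3.89e-07). The lowest value, in the EMCN+ library of mouse 3, rests on 6 counts. Ctsh (chr9:90054152-90076089) had 34.9, 54.2, 40.3 and 41.4 CPM in GMPs beside the LT-HSC values given above, of which the highest was 15.1 CPM, and a log2 difference of -2.26 ± 0.17 (SE, edgeR adjusted p = 4.34e-10). Ctsz (chr2:174427493-174439039), the carboxypeptidase cathepsin Z, had 31.3, 33.0, 26.2 and 22.7 CPM in EMCN+ LT-HSCs and 29.1, 26.6 and 23.5 CPM in EMCN- LT-HSCs, against 102, 107, 89.5 and 85.7 CPM in GMPs. The difference was -1.79 ± 0.11 (SE, edgeR adjusted p = 8.92e-12), and the groups did not overlap.

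Neu1, the sialidase that removes sialic acid from glycoproteins, had 8.04, 7.81, 12.7 and 8.79 CPM in EMCN+ LT-HSCs and 7.65, 6.62 and 8.46 CPM in EMCN- LT-HSCs, against 27.9, 33.3, 29.4 and 26.7 CPM in GMPs. Its log2 difference was -1.78 ± 0.16 (SE, edgeR adjusted p = 3.2e-09). Hexa (chr9:59539540-59565109), the alpha subunit of hexosaminidase that is lost in Tay-Sachs disease, had 36.4, 31.7, 35.5 and 35.0 CPM in EMCN+ LT-HSCs and 41.2, 34.1 and 34.5 CPM in EMCN- LT-HSCs, against 106, 113, 95.4 and 110.1 CPM in GMPs. The 7 LT-HSC values of Hexa lay close to each other and far below the GMP values, with a log2 difference of -1.58 ± 0.09 (SE, edgeR adjusted p = 3.83e-12). Npc2 (chr12:84754562-84773152), the soluble protein that hands cholesterol to the membrane protein NPC1, had 36.1, 33.8, 36.3 and 37.9 CPM in EMCN+ LT-HSCs and 33.8, 35.5 and 40.6 CPM in EMCN- LT-HSCs, against 100.2, 103, 114 and 95.9 CPM in GMPs. The log2 difference of Npc2 was -1.51 ± 0.09 (SE, edgeR adjusted p = 5.51e-12), and neither Neu1 nor Npc2 had overlapping groups.

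The other 7 lower lysosomal members were Gusb (-1.17), Lamp1 (-1.09), Lamp2 (-0.70), Man2b1 (-0.67), Ctsa (-0.56), Ctsb (-0.49) and Lipa (-0.38), given as log2 differences of LT-HSC minus GMP. Gusb encodes beta-glucuronidase, Lamp1 and Lamp2 the main glycoproteins of the lysosomal membrane, Ctsa the protective protein cathepsin A, Ctsb cathepsin B and Lipa the acid lipase. Only Lipa had overlapping groups among these 7, and its call (edgeR adjusted p = 0.0103) was lost when libraries were thinned to the smallest total and when mouse 1 was left out. With total-count scaling Ctsb and Lipa were called higher in LT-HSCs, at 0.29 and 0.40, and Lamp2, Ctsa and Man2b1 were not called. The 8 genes Gla, Ctsh, Ctsz, Neu1, Hexa, Npc2, Gusb and Lamp1 were lower in LT-HSCs with TMM factors, with RLE factors and with total-count scaling. Ctsc, Ctsd, Ctss, Glb1, Mcoln1 and Psap did not pass the test, with log2 differences from -0.19 (Ctsd) to 0.22 (Psap). With total-count scaling all 6 were called higher, at 0.593 (Ctsd) or more. Ctsd was called lower, at -0.25 to -0.21, in 3 other alternatives of 23: with protein-coding genes alone, without the EMCN- library of mouse 2 and without the EMCN+ library of mouse 3. Psap, the precursor of the saposins, was called higher in 4 of 23 alternatives. These were total-count scaling, the mouse as a block (0.22, edgeR adjusted p = 0.0365), thinned libraries, and leaving out the GMP library of mouse 2. Of the 4 members with the CLEAR core shown above, Gla and Ctsa were lower in LT-HSCs and Ctsd and Mcoln1 did not pass with TMM factors, while with total-count scaling Gla was lower, Ctsa was not called and Ctsd and Mcoln1 were higher.

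The 5 lysosomal members that were higher in LT-HSCs were 4 membrane proteins and a single hydrolase. Ctsl (chr13:64359337-64370890), the endopeptidase cathepsin L, had 24.2, 24.4, 23.9 and 23.3 CPM in EMCN+ LT-HSCs and 18.8, 16.6 and 22.1 CPM in EMCN- LT-HSCs, against 13.4, 10.9, 5.69 and 6.34 CPM in GMPs. The LT-HSC values lay above all GMP values, and the GMP values themselves split, with mice 1 and 2 above mice 3 and 4; the log2 difference was 1.23 ± 0.20 (SE, edgeR adjusted p = 1.49e-05). Npc1, the membrane protein that exports cholesterol from the lysosome, had 35.8, 47.1, 31.5 and 40.1 CPM in EMCN+ LT-HSCs and 40.1, 42.6 and 45.3 CPM in EMCN- LT-HSCs, against 19.9, 20.6, 21.4 and 24.4 CPM in GMPs. The log2 difference of Npc1 was 0.90 ± 0.12 (SE, edgeR adjusted p = 2.28e-06), opposite in sign to that of its partner Npc2. Laptm4a, a membrane protein of late endosomes and lysosomes, had 71.4, 76.8, 99.6 and 73.1 CPM in EMCN+ LT-HSCs and 71.1, 74.4 and 78.9 CPM in EMCN- LT-HSCs, against 42.9, 36.1, 47.1 and 42.4 CPM in GMPs. Npc1 and Laptm4a had no overlap between LT-HSCs and GMPs, and Laptm4a differed by 0.89 ± 0.11 (SE, edgeR adjusted p = 5.28e-07).

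Scarb2 and Laptm5 differed by less. Scarb2 encodes LIMP-2, which carries glucocerebrosidase to the lysosome, and had 85.4, 80.6, 65.5 and 70.8 CPM in EMCN+ LT-HSCs and 72.4, 67.7 and 77.3 CPM in EMCN- LT-HSCs, against 57.4, 62.0, 54.0 and 60.3 CPM in GMPs (log2 difference 0.34 ± 0.10, edgeR adjusted p = 0.00388). Laptm5, a lysosomal membrane protein of blood cells, had 239, 277, 232 and 227 CPM in EMCN+ LT-HSCs and 212, 246 and 221 CPM in EMCN- LT-HSCs, against 214, 197, 198 and 184 CPM in GMPs (log2 difference 0.25 ± 0.09, edgeR adjusted p = 0.0171). The GMP library of mouse 1 lay above the EMCN- library of the same mouse for Laptm5, and the call was lost without the EMCN- library of mouse 2 or without the GMP library of mouse 4, with edgeR adjusted p of up to 0.0692. All 5 genes remained higher in LT-HSCs with RLE factors and with total-count scaling.

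**Figure D3:**
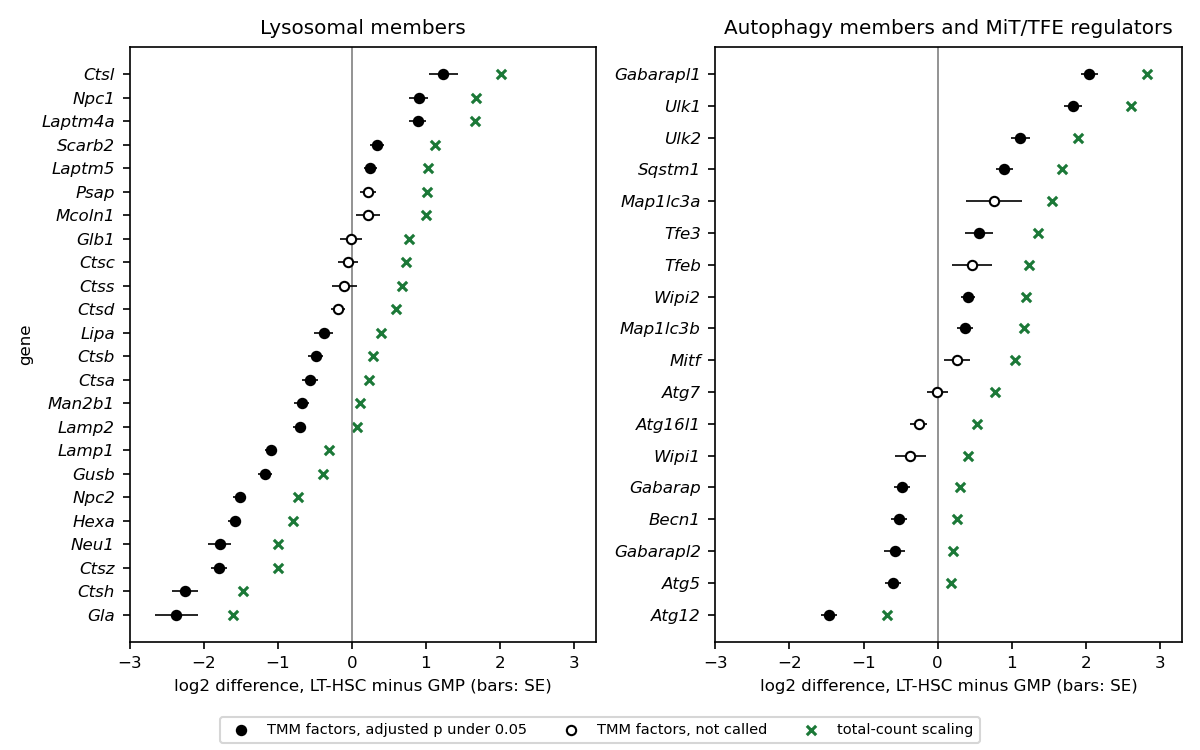
Log2 difference of each member, LT-HSC minus GMP (across), for lysosomal members (left) and autophagy members with the MiT/TFE genes (right). Circles with bars show the value and SE with TMM factors, filled where the edgeR adjusted p was under 0.05, and green crosses show total-count scaling, which lies to the right by about 0.78 for each gene; Gla (-2.37) and Gabarapl1 (2.05) are the ends of the range.

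Gabarapl1 differed most of the autophagy members. Its gene lies at chr6:129533160-129542346 on the plus strand of GRCm38, and it had 82.6, 97.6, 108 and 109 CPM in EMCN+ LT-HSCs and 68.2, 82.2 and 84.1 CPM in EMCN- LT-HSCs, against 19.6, 21.7, 20.9 and 24.3 CPM in GMPs. Every LT-HSC library lay far above every GMP library, and the fitted difference was 4.15-fold (log2 difference 2.05 ± 0.12, SE, edgeR adjusted p = 2.89e-12). Gabarap, the founding member of the branch, had 43.0, 36.7, 45.9 and 39.5 CPM in EMCN+ LT-HSCs and 36.9, 39.1 and 28.9 CPM in EMCN- LT-HSCs, against 59.3, 54.2, 49.9 and 51.9 CPM in GMPs. It was lower in LT-HSCs with TMM factors (-0.48 ± 0.11, SE, edgeR adjusted p = 0.000459) and higher with total-count scaling (0.30). Gabarapl2 had 24.3, 22.7, 28.6 and 21.1 CPM in EMCN+ LT-HSCs and 27.4, 24.2 and 15.0 CPM in EMCN- LT-HSCs, against 39.6, 32.2, 36.7 and 31.5 CPM in GMPs, a log2 difference of -0.58 ± 0.14 (SE, edgeR adjusted p = 0.00139) that was 0.21 and not called with total-count scaling. Of the GABARAP branch Gabarapl1 was thus higher under each scaling, while with total-count scaling Gabarap was called higher and Gabarapl2 did not pass.

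Of the LC3 branch Map1lc3b was higher in LT-HSCs and Map1lc3a did not pass with TMM factors. Map1lc3b had 76.5, 69.2, 86.5 and 80.3 CPM in EMCN+ LT-HSCs and 70.5, 78.1 and 87.4 CPM in EMCN- LT-HSCs, against 56.6, 61.7, 72.6 and 51.1 CPM in GMPs. The GMP library of mouse 3 lay within the LT-HSC range, and the log2 difference was 0.37 ± 0.11 (SE, edgeR adjusted p = 0.00435). Map1lc3a had 1.26, 4.08, 2.96 and 1.31 CPM in GMPs, where 2 libraries held 7 and 8 counts, and it did not pass the test (0.76 ± 0.38, SE, edgeR adjusted p = 0.0876). It did pass in 2 of 23 alternatives, without the GMP library of mouse 2, at 1.16 (edgeR adjusted p = 0.0217), and with total-count scaling, at 1.55 (edgeR adjusted p = 0.000747).

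The kinases that start autophagy were higher in LT-HSCs. Ulk1 (chr5:110784488-110810097) had 15.6, 10.9, 13.4 and 14.0 CPM in GMPs, and the 7 LT-HSC values given above, from 42.1 to 58.7 CPM, all lay above them, with a log2 difference of 1.83 ± 0.12 (SE, edgeR adjusted p = 5.72e-11). Ulk2, its paralogue, had 46.4, 43.7, 44.9 and 42.6 CPM in EMCN+ LT-HSCs and 39.5, 39.6 and 39.5 CPM in EMCN- LT-HSCs, against 22.7, 19.7, 21.9 and 13.6 CPM in GMPs. The log2 difference of Ulk2 was 1.12 ± 0.13 (SE, edgeR adjusted p = 1.53e-07), and the GMP library of mouse 4 was the lowest. Sqstm1 (chr11:50199366-50210827), the cargo receptor p62, had 72.1, 77.3, 64.4 and 65.7 CPM in EMCN+ LT-HSCs and 60.6, 75.2 and 55.2 CPM in EMCN- LT-HSCs, against 41.6, 32.2, 37.3 and 32.8 CPM in GMPs. It differed by 0.90 ± 0.11 (SE, edgeR adjusted p = 5.59e-07) with no overlap between the groups. Wipi2, a phosphoinositide-binding protein of the early membrane, was higher by 0.41 (edgeR adjusted p = 0.000992), and Wipi1 did not pass (-0.37, edgeR adjusted p = 0.13). Gabarapl1, Ulk1, Ulk2, Sqstm1, Wipi2 and Map1lc3b were higher in LT-HSCs with TMM factors, RLE factors and total-count scaling.

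With TMM factors Atg12, Atg5 and Becn1 were lower in LT-HSCs, and of these Atg12 alone kept that call with total-count scaling. Atg12, the ubiquitin-like protein joined to ATG5, had 33.2, 26.6, 35.4 and 37.9 CPM in EMCN+ LT-HSCs and 28.2, 31.6 and 36.7 CPM in EMCN- LT-HSCs, against 87.6, 99.1, 93.3 and 81.2 CPM in GMPs. All LT-HSC values were under those of GMPs by a wide gap, with a log2 difference of -1.47 ± 0.11 (SE, edgeR adjusted p = 1.51e-10), and Atg12 was lower under each of the 3 scalings. Atg5 had 38.2, 44.6, 40.5 and 37.5 CPM in GMPs, all above the LT-HSC values given above, with a log2 difference of -0.60 ± 0.11 (SE, edgeR adjusted p = 8.54e-05). Becn1, beclin 1 of the lipid kinase complex, had 35.5, 35.1, 38.8 and 30.5 CPM in EMCN+ LT-HSCs and 37.5, 32.8 and 29.6 CPM in EMCN- LT-HSCs, against 53.5, 44.2, 50.1 and 49.5 CPM in GMPs (-0.52 ± 0.10, SE, edgeR adjusted p = 0.000192). With total-count scaling Atg5 and Becn1 had values of 0.18 and 0.26 and were not called. Atg7 and Atg16l1, the other conjugation genes among the members, did not pass, at 0.00 and -0.26. With total-count scaling both were called higher, at 0.78 and 0.53. Atg16l1 was called lower, at -0.35 to -0.28, in 5 other alternatives of 23: without the EMCN- libraries of mice 2 or 4, without the GMP library of mouse 4, with protein-coding genes alone and with thinned libraries.

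**Figure D4:**
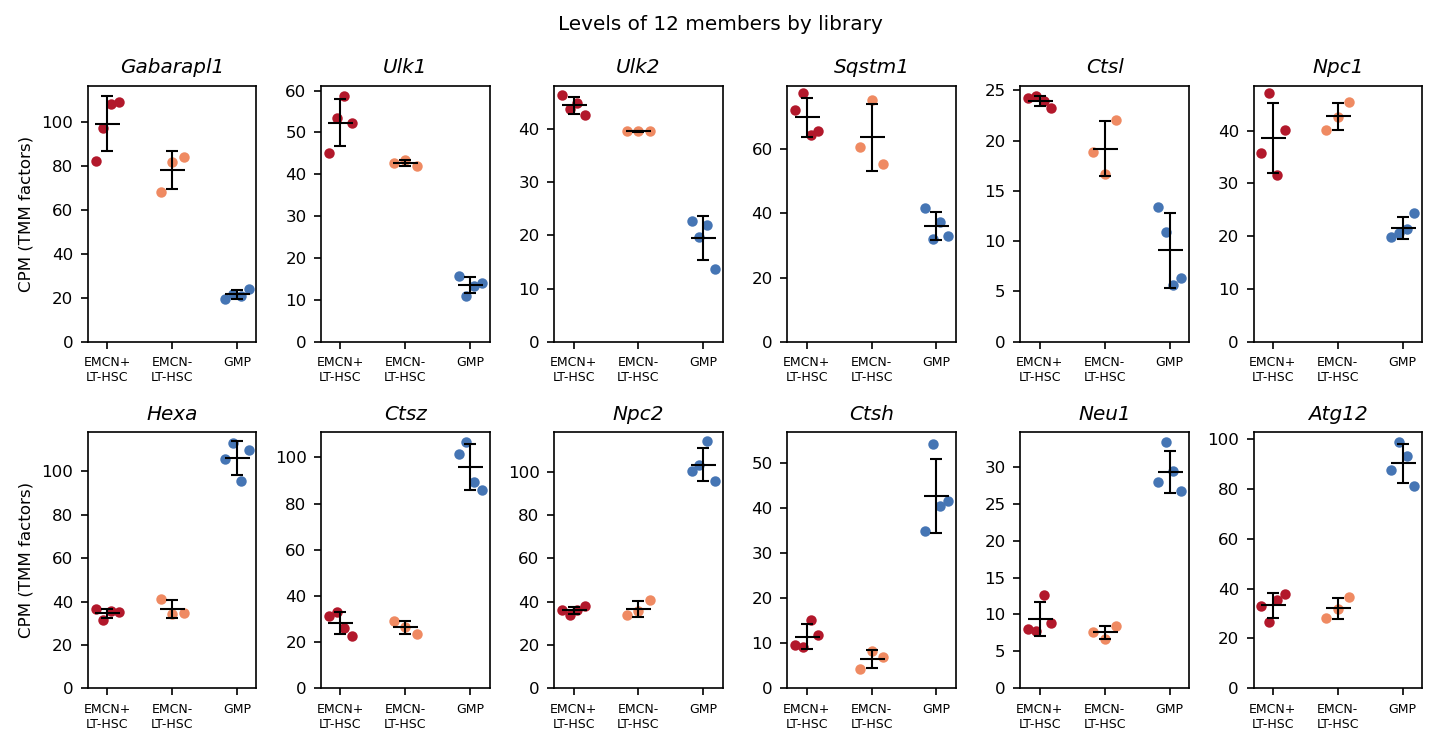
Level in CPM (up, from 0) of 12 members in each library (4 for EMCN+ LT-HSCs, 3 for EMCN- LT-HSCs, 4 for GMPs); points are libraries, and the bars show the mean and SD. Gabarapl1, Ulk1, Ulk2, Sqstm1, Ctsl and Npc1 (upper panels) have every LT-HSC library above every GMP library, and Hexa, Ctsz, Npc2, Ctsh, Neu1 and Atg12 (lower panels) have every one below.

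Of the MiT/TFE genes Tfe3 was higher in LT-HSCs, and Tfeb and Mitf did not pass the test with TMM factors. Tfe3 had 7.89, 9.79, 11.4 and 7.46 CPM in GMPs, with a log2 difference of 0.56 ± 0.19 (SE, edgeR adjusted p = 0.0122), and the groups touched, since the highest GMP value lay above the lowest LT-HSC value. Without mouse 1 the call was lost (edgeR adjusted p = 0.0532). Tfeb had 3.94, 4.90, 6.83 and 3.73 CPM in GMPs and Mitf had 17.5, 10.8, 15.0 and 9.70 CPM in GMPs, both overlapping the LT-HSC values, with log2 differences of 0.46 (edgeR adjusted p = 0.141) and 0.26 (edgeR adjusted p = 0.215). With total-count scaling all 3 were called higher.

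Over all members 9 had every LT-HSC library above every GMP library, against 25.0% of all genes, and 17 had every one below, against 23.0% of all genes.

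Ratios of counts within a library do not depend on the scaling between libraries. These 3 pairs were chosen after the values were seen and are a description. The ratio of Gabarapl1 to Gabarap counts was 1.85 to 2.91 in the 7 LT-HSC libraries, against 0.330 to 0.468 in the 4 GMP libraries. The ratio of Ctsl to Ctsz counts was 0.624 to 1.03 in LT-HSCs, against 0.0636 to 0.132 in GMPs, and that of Npc1 to Npc2 counts was 0.868 to 1.39 in LT-HSCs, against 0.188 to 0.255 in GMPs. No ratio overlapped between LT-HSCs and GMPs, while those of the EMCN+ and EMCN- fractions did overlap.

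Set per kilobase of the median transcript of each gene, Gabarapl1 made up 53.9 ± 3.79% of the 5 ATG8 genes in EMCN+ LT-HSCs, 50.4 ± 4.97% in EMCN- LT-HSCs and 17.98 ± 2.35% in GMPs (SD, n = 4, 3 and 4 libraries). Gabarap made up 19.2 ± 1.84%, 19.3 ± 2.57% and 38.2 ± 2.31% in the same order, and was the largest share in GMPs. Among the 8 cathepsins Ctsl had 11.3 ± 1.56% in LT-HSCs, against 3.21 ± 1.35% in GMPs, and Ctsz had 6.83 ± 0.82% in LT-HSCs, against 16.4 ± 1.51% in GMPs. These shares depend on the transcript length that is used: with the longest transcript Ctsl had 3.07% in LT-HSCs, against 0.768% in GMPs, and Ctsz 16.4%, against 34.7%. For Ctsl and Ctsz the group with the larger share was the same with both lengths, which did not hold for the smaller differences of Ctsa and Map1lc3b. By level per kilobase Laptm5 was the highest member in both LT-HSC fractions with either length, and Gla was the lowest in both.

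**Figure D5:**
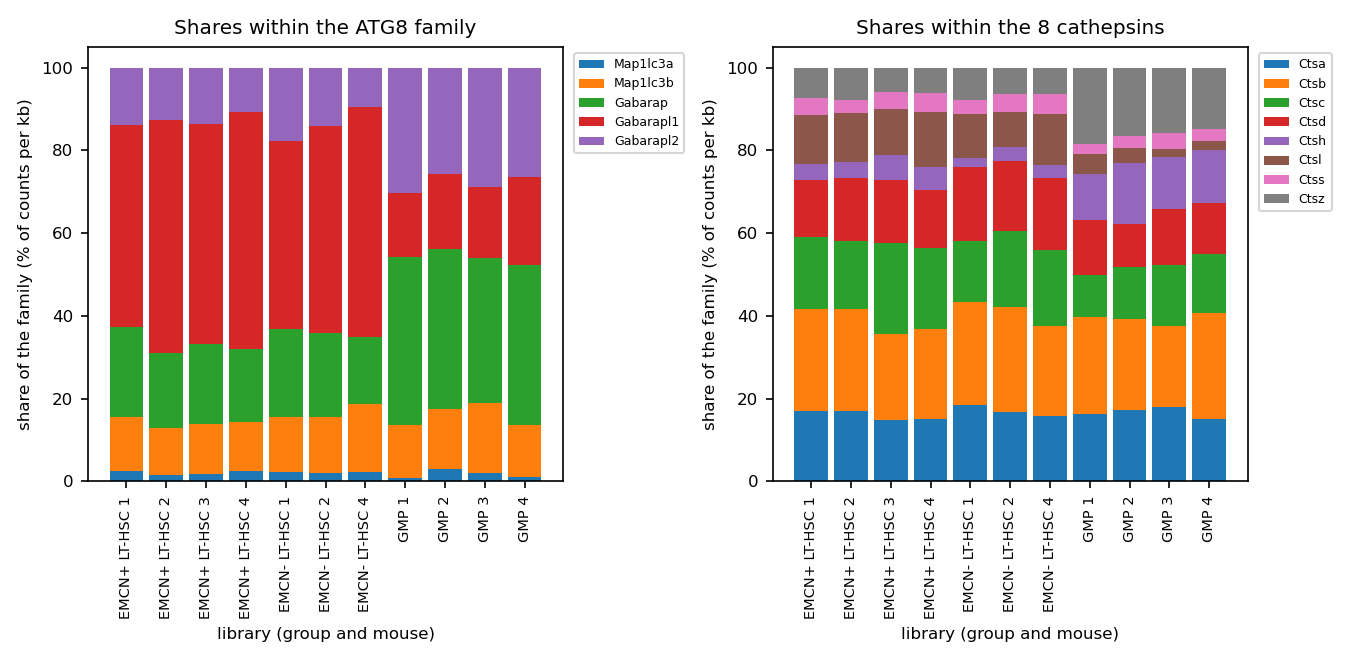
Share of each gene in the summed counts per kilobase of median transcript (up, percent) for the 5 ATG8 genes (left) and the 8 cathepsins (right) in each library, with EMCN+ LT-HSCs on the left, then EMCN- LT-HSCs, then GMPs. The Gabarapl1 band spans 45.6 to 57.3% of the ATG8 bar in LT-HSC libraries, against 15.6 to 21.1% in GMP libraries.

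Each LT-HSC fraction was also set against GMPs, with the same 4 GMP libraries in both comparisons. EMCN+ LT-HSCs had 14 members higher and 20 lower than GMPs, where 61.3% of all genes were called, 31.9% higher and 29.4% lower. EMCN- LT-HSCs had 11 members higher and 17 lower, where 52.7% of all genes were called, 28.3% higher and 24.4% lower. With the mouse as a block EMCN- LT-HSCs had 10 members higher and 17 lower, where 4220 of 14915 genes were higher and 3722 lower. The log2 difference from GMPs was 2.20 in EMCN+ and 1.85 in EMCN- LT-HSCs for Gabarapl1, 1.95 and 1.66 for Ulk1, -1.91 and -2.72 for Ctsh, and -2.62 and -2.04 for Gla. Mitf was called higher in EMCN+ LT-HSCs (0.52, edgeR adjusted p = 0.0262) and not called in EMCN- LT-HSCs (-0.09, edgeR adjusted p = 0.768), and the test between the fractions themselves, given above, did not pass.

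Other genes of the same pathways were taken from lists that were chosen with earlier results of these data known. Of 28 further hydrolases that passed the filter 11 were higher and 7 lower in LT-HSCs than in GMPs, where 32.5% of all genes were higher and 29.9% lower, so these counts lay near the shares of all genes. Ctsf (cathepsin F, log2 difference 2.86) and Ctso (1.71) were among the higher ones, and Arsb (-2.25), Galns (-1.44) and Dnase2a (-1.14) among the lower ones. Of 24 membrane and transport genes 5 were higher and 13 lower, with Igf2r (3.92), Cln3 (1.36) and Abca2 (0.60) higher and Tmem192 (-1.55), Nagpa (-1.46) and Cd63 (-1.24) lower. Of 16 V-ATPase genes 2 were higher, Atp6v1d (0.29) and Atp6v1a (0.25), and 11 were lower, Atp6v0b (-2.22), Atp6ap2 (-2.10) and Atp6v0c (-1.52) among them. Total-count scaling turned the V-ATPase counts to 5 higher and 5 lower. It turned those of the hydrolases to 22 higher and 3 lower and those of the membrane genes to 11 higher and 3 lower. Of all 14915 genes tested 9063 were higher and 1907 lower with that scaling. All 9 lower genes named here stayed lower with it.

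Igf2r, the receptor that carries mannose-6-phosphate-tagged hydrolases to the lysosome, was the only gene of these lists that passed between the LT-HSC fractions. It had 62.4 ± 9.48 CPM in EMCN+ LT-HSCs (SD, n = 4), 33.3 ± 5.82 CPM in EMCN- LT-HSCs (n = 3) and 3.10 ± 1.43 CPM in GMPs (n = 4). It was higher in EMCN+ than in EMCN- LT-HSCs by 0.91 ± 0.18 (log2, SE, edgeR adjusted p = 0.0134), where 0.771% of all genes were higher. The smallest p of the lists with no call between the fractions belonged to Gaa (0.28, edgeR adjusted p = 0.316), Atp6v0a1 (0.61, edgeR adjusted p = 0.101), Lamtor1 (-0.29, edgeR adjusted p = 0.367), Vmp1 (-0.34, edgeR adjusted p = 0.215) and Calcoco1 (0.49, edgeR adjusted p = 0.123).

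Genes of mTORC1 signalling at the lysosome and of autophagy outside the members were counted against the same shares of all genes between LT-HSCs and GMPs, 32.5% higher and 29.9% lower, and most of these counts lay near them. Of 16 mTORC1 genes 5 were higher, with Tsc1 (1.14), Fnip2 (0.80) and Rraga (0.51) in front, and 6 were lower, with the Ragulator subunits Lamtor4 (-2.51), Lamtor2 (-1.23) and Lamtor5 (-1.22) in front. Of 23 core autophagy genes 9 were higher, with Atg14 (0.93), Atg2a (0.92) and Wdr45 (0.74), and 6 were lower, with Atg4a (-1.58), Atg101 (-0.78) and Nrbf2 (-0.76). Of 21 genes of receptors and fusion 10 were higher, with Calcoco1 (2.25), Tecpr1 (2.18) and Optn (1.10), and 5 were lower, with Bnip3 (-0.58), Ykt6 (-0.51) and Vamp8 (-0.41). With total-count scaling the counts of these 3 lists were 10 higher and 3 lower, 17 higher and 1 lower, and 18 higher and 0 lower. Of all 14915 genes tested 9063 were higher and 1907 lower with that scaling. Of the lower genes named here the 3 Ragulator subunits and Atg4a stayed lower.

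Of the marker lists of other cell types given here, that of erythroid markers alone had sums that overlapped between LT-HSCs and GMPs. Other marker lists, such as those of B cells and of mast cells and basophils, are not reported here. The sum of 15 monocyte and macrophage markers was 9.69 to 17.7 CPM in EMCN+ LT-HSCs, 9.63 to 16.3 CPM in EMCN- LT-HSCs and 459 to 574 CPM in GMPs. Of these markers Marco was at 0 in EMCN- LT-HSCs and in GMPs, and Ly6c2 in EMCN- LT-HSCs. The sum of 9 neutrophil markers was 3.01 to 5.26, 2.35 to 4.36 and 127 to 530 CPM in the same order, with Ly6g at 0 in all 11 libraries, Retnlg at 0 in EMCN+ and Mmp8 at 0 in EMCN- LT-HSCs. The sum of 8 dendritic cell markers was 72.0 to 101, 67.2 to 89.3 and 23.0 to 32.5 CPM in that order. Between the fractions, 6 megakaryocyte markers summed to 26.4 to 39.4 CPM in EMCN+ LT-HSCs, 69.3 to 112 CPM in EMCN- LT-HSCs and 10.9 to 22.7 CPM in GMPs, and 9 endothelial markers to 85.8 to 124, 69.8 to 76.6 and 7.06 to 12.5 CPM in that order. Cldn5 was at 0 in EMCN- LT-HSCs and in GMPs, and Cdh5, Gp1bb and Ppbp were at 0 in GMPs. The sum of 6 erythroid markers was 13.9 to 18.9, 7.50 to 9.16 and 11.5 to 43.1 CPM in that order. Among them Car1 was at 0 in EMCN+ LT-HSCs and called lower there than in EMCN- LT-HSCs (edgeR adjusted p = 0.0387). By sign, 2 of 5 erythroid markers tested were higher and 3 lower in EMCN+ LT-HSCs, while the sum was higher there. Of 4 megakaryocyte markers tested 2 were called lower in EMCN+ than in EMCN- LT-HSCs (lowest edgeR adjusted p = 0.00237). Of 9 LT-HSC markers 3 were called higher there (lowest edgeR adjusted p = 0.00795). Of all genes tested 0.771% were higher and 1.19% lower in EMCN+ LT-HSCs. The sum of 5 T and NK cell markers was 4.39 to 6.13 CPM in EMCN+ LT-HSCs, 2.35 to 2.45 CPM in EMCN- LT-HSCs and 0.683 to 2.21 CPM in GMPs. Of these Cd3e and Ncr1 were at 0 in all 11 libraries and Cd3g at 0 in EMCN- LT-HSCs and in GMPs. Just 1 of the 5 passed the filter on low counts. So did 4 of 8 dendritic cell, 4 of 6 megakaryocyte, 5 of 9 endothelial, 6 of 9 neutrophil and 12 of 15 monocyte and macrophage markers. The part of such cells, and of the mitochondrial ribosomal and other noncoding RNA given above, in the lysosome and autophagy results was not tested.

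Genes share sequence positions with others in some places. Of the 42 members 13 overlap an annotated gene on the opposite strand, and 6 overlap one on the same strand. Gabarapl1 (with 1700101I11Rik), Hexa (with Tmem202), Ctsz (with Nelfcd) and Sqstm1 (with Mrnip) are among those with a partner on the opposite strand. The 6 with a partner on the same strand are Ctsd, Ctsl, Ctss, Glb1, Atg7 and Map1lc3b. These overlaps are of whole gene spans, and overlap of exons was not looked at. Whether the counting used the strand was not given in the sources used here. Whether reads of a partner entered the count of a member was not tested.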

How the data were processed

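Per the labels' protocols, the 11 libraries (4 for EMCN+ LT-HSCs, 3 for EMCN- LT-HSCs, 4 for GMPs) came from the picogram-input version of the SMARTer stranded total RNA kit. The molecule is labelled polyA RNA, which that kit does not select. The authors deposited estimated counts per gene, for which the submitters' processing notes name cutadapt and Salmon. Versions, genome build and the step from transcripts to genes are not given in the sources used here. The estimated counts were whole numbers and were rounded as a safeguard.

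All 11 libraries were fitted together in R 4.3.3 with edgeR 4.0.16: genes filtered by group (minimum count 10, which kept 99.7% of counts), TMM factors, robust quasi-likelihood test without a mouse term, and Benjamini-Hochberg adjustment with a threshold of 0.05. EMCN+ were compared with EMCN- LT-HSCs, all LT-HSCs (7 libraries weighted equally) with GMPs, and each fraction with GMPs. The fit was tested on simulated data. A single count was worth 0.0697 to 0.235 CPM, and with no molecular identifiers this precision covers counting error only. Alternatives used DESeq2 1.42.0, limma 3.58.1 (voom), other scalings and filters, and left out libraries.

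The members, gene lists and tests were chosen with earlier results of these data known. Library values are given for the MiT/TFE and ATG8 genes and, between LT-HSCs and GMPs, for up to 6 lysosomal and 4 autophagy members in each direction, the largest differences among the members that passed and averaged at least 5 CPM. Of each further list up to 3 called genes per direction are named, or the one with the smallest p; results that needed certain further genes are not reported here. Gene positions and transcript lengths are from GENCODE M21 on GRCm38, matched by identifier, and promoters are from RefSeq.

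The replicate number is the mouse number in the labels, so the same number in different groups is the same animal. Deviations from the group mean correlated on average by 0.198 in the 3 same-mouse pairs of LT-HSC fractions, against -0.0657 in 9 pairs of different mice. For LT-HSC and GMP libraries the mean was 0.0713 in 7 same-mouse pairs and -0.0237 in 21 others.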

Additional observations from a re-analysis of the deposited data

Results flagged for a closer look

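Among 84 groups of 4 libraries (42 members in EMCN+ LT-HSCs and in GMPs) 4 had 1 library far from the others, as chance gives in about 1 of 20 groups. Lamp1, a lysosomal membrane glycoprotein, had 101 CPM in the EMCN+ library of mouse 3, against 90.0 to 91.5 CPM in the other 3. Ctsc, cathepsin C, which activates granule proteases, had 56.5 CPM in the same library, against 40.7 to 42.8 CPM in the other 3. In GMPs Ctsc had 32.2 CPM in the library of mouse 1, against 47.0 to 48.5 CPM in the other 3. Wipi1, a phosphoinositide-binding protein, had 5.47 CPM in the EMCN+ library of mouse 4, against 7.25 to 7.46 CPM in the other 3.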

How the results depend on the processing

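Depth limits the precision of Gla and Map1lc3a, which rested on 6 and 7 counts in their lowest libraries. Of 1134 values recomputed for 49 results, 15 turned sign and 21 counts moved by more than 1.5 times. The number of genes called between EMCN+ and EMCN- LT-HSCs was 529 without a filter on low counts, 451 with DESeq2, 465 with protein-coding genes alone, 90 without mouse 1, and 55 to 338 with 1 library left out, with 55 if the EMCN- library of mouse 1 was left out, 194 for that of mouse 2 and 191 for that of mouse 4, and 105 and 184 for the EMCN+ libraries of mice 2 and 4. With the mouse as a replicate block it was 374 of 14915 genes over all 11 libraries. Over the 6 libraries of complete pairs it was 908 of 13435, and no member was called in either fit. Between LT-HSCs and GMPs the block gave 13 members higher and 18 lower, where 4912 of all genes were higher and 4543 lower. Among the members the block changed no call of these 2 comparisons but that of Psap. Against GMPs it left EMCN- LT-HSCs with 10 members higher and 17 lower, where 4220 of all genes were higher and 3722 lower. Total-count scaling, the fit without a filter and the thinned libraries each called 1 lysosomal member, Ctsh, higher in EMCN+ LT-HSCs. In that order, 161 of 14915, 236 of 33124 and 116 of 13160 genes were higher. The thinned libraries were an alternative chosen after seeing the data, as was leaving out mouse 1. With total-count scaling, 13 lysosomal members were higher and 8 lower in LT-HSCs than in GMPs, and 10 autophagy members were higher and 1 lower. Of all 14915 genes tested 9063 were higher and 1907 lower in that comparison. EMCN+ LT-HSCs had 27 members higher and 9 lower than GMPs, where 8973 of all genes were higher and 1877 lower. EMCN- LT-HSCs had 24 higher and 9 lower, where 8209 of all genes were higher and 1473 lower. The same scaling gave Becn1 0.261, Atg5 0.182, Gabarap 0.297 and Gabarapl2 0.207 (log2, LT-HSC minus GMP). Between the fractions Tfe3 turned to 0.0419 with total-count scaling and 0.00263 without mouse 1, and ran from -0.206 to 0.0703 with 1 library left out. Map1lc3b turned to 0.00921 with RLE factors, 0.0991 with total-count scaling, 0.00507 without a filter and 0.0095 with DESeq2, and ran from -0.0836 to 0.07 with 1 library left out, and Gabarapl2 ran from -0.091 to 0.286. None of these 3 passed the test under any alternative between the fractions. Apart from the scaling itself, the cause of these changes was not tested.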
